A study of Mus musculus with 2 samples.

Results

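The transforming growth factor beta (TGF-beta) ligands and receptors were followed through the cells of the aorta-gonad-mesonephros region (AGM) of mouse embryos. The genes were chosen by name as 10 of the 31053 genes in the count matrices: the ligands Tgfb1, Tgfb2 and Tgfb3, the signaling receptors Tgfbr1, Tgfbr2 and Acvrl1, the co-receptors Tgfbr3 and Eng, and the matrix proteins Ltbp1 and Tgfbi. The study dissociated whole AGMs at embryonic day 11, from embryos with intact Pdgfrb (WT) and from embryos lacking it (KO), and made 1 droplet single-cell RNA library for each genotype. The KO allele was a constitutive null allele on a C57BL/6J background kept through heterozygotes, and the number of embryos pooled into each library was not stated. With 1 library per genotype there was no replicate, so no test between genotypes was possible. All intervals are 95% intervals for counting error alone.

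TGF-beta ligands are secreted in a latent complex that is held in the matrix by LTBP proteins. Once released, they bind a type II receptor (TGFBR2), which activates a type I receptor, TGFBR1 in most cells and also ACVRL1 (ALK1) in endothelium. Endoglin (ENG) and betaglycan (TGFBR3) are co-receptors that present ligand. In vessels the pathway is known for its part in the assembly of endothelium and mural cells, and loss of ENG or ACVRL1 gives hereditary hemorrhagic telangiectasia.

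Cells were barcodes with 2000 or more unique molecular identifiers (UMIs, 1 per captured RNA molecule) and under 10% mitochondrial UMIs, which left 8253 WT and 8165 KO cells with a median of 13321 and 12391 UMIs. A cell entered a class when it carried UMIs of at least 4 of the 8 markers of a list, and 13 classes held 20 or more cells in both libraries. These classes are ranges of marker counts and not sharp types. Of all kept cells, whatever class they entered, 237 WT and 201 KO cells carried exactly 4 markers of the smooth muscle or mural list. Another 536 and 352 cells lay at 3. Levels are given as CPM, the UMIs summed over a class and scaled to 1000000 UMIs. Pdgfrb itself stood at 43.1 CPM over all WT cells against 7.09 CPM over the KO cells, a log2 ratio of -2.60, so the labels fit the targeted gene although some transcript was still counted. The libraries also differed in sex (Xist 793 and 0.415 CPM, Ddx3y 0.00666 and 56.7 CPM), so sex, library and genotype cannot be told apart. The libraries shared 20 cell barcodes.

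Eng and Tgfbr2 were highest in endothelial-like cells and Tgfb2 in smooth muscle or mural-like cells. The 250 bases before their annotated starts are shown as examples of genes with their highest level in different classes, from RefSeq (GRCm38.p6), on the strand of the gene. They lie at chr2:32646345-32646594 (plus strand) for Eng, chr9:116175364-116175613 (minus strand) for Tgfbr2 and chr1:186705990-186706239 (minus strand) for Tgfb2. Capitals mark AGGAAG, the core bound by ETS factors, on either strand, and TATAAA, the TATA box.
Eng: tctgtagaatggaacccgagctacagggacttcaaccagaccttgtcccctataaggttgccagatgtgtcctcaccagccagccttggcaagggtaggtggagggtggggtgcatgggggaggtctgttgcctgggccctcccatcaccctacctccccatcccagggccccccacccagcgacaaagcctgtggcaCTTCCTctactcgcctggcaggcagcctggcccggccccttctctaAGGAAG
Tgfbr2: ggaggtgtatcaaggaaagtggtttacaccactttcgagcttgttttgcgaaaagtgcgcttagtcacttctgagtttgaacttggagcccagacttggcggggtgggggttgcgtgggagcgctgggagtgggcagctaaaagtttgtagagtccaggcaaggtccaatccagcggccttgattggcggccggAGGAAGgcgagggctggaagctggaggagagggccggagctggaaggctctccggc
Tgfb2: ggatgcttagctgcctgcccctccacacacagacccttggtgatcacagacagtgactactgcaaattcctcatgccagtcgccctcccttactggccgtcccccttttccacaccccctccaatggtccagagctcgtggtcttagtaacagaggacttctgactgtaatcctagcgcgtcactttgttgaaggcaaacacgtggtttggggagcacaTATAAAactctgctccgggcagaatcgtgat
AGGAAG stood at 2 places in the Eng window, starting 52 and 6 bases before the start, and once in the Tgfbr2 window at 56 bases. TATAAA stood 31 bases before the Tgfb2 start. Among 32851 promoter windows of the same length, 29.5% held AGGAAG and 12.4% held TATAAA, so both are common and the matches are a description only. CAGACA, a Smad-binding core, stood once in the Tgfb2 window and in 17.1% of all windows. Promoter entries were found for 7 of the 10 genes.

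**Figure D1:**
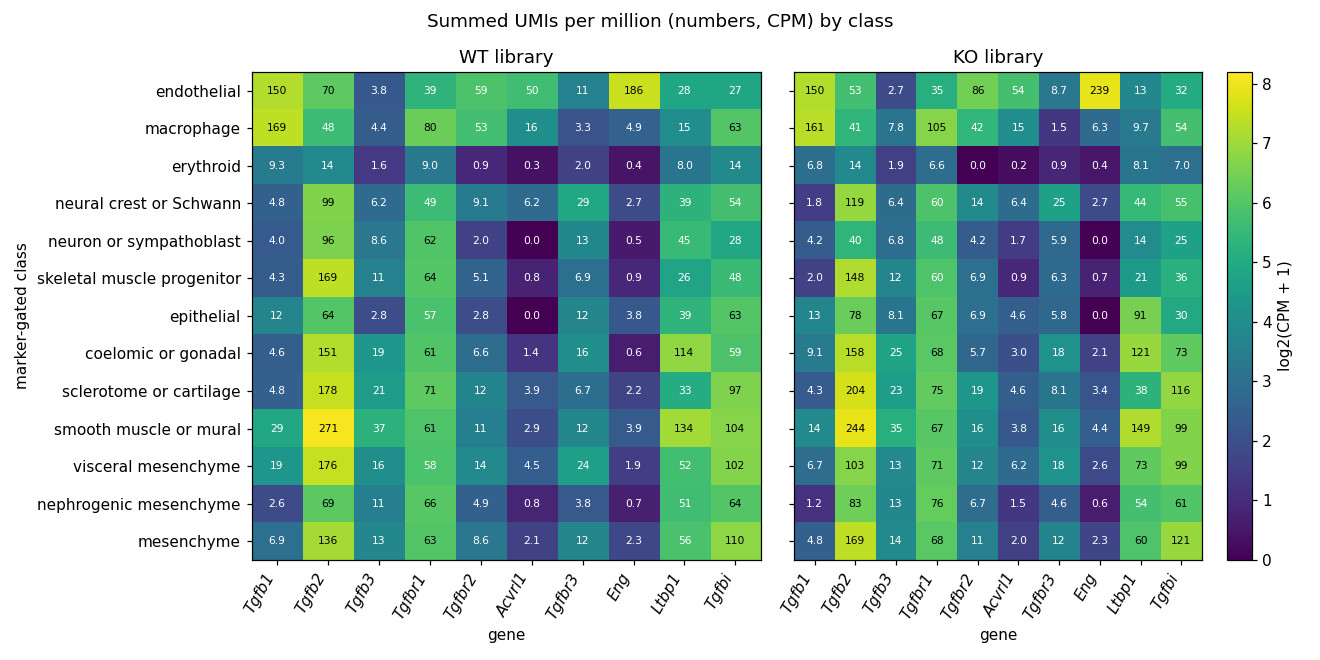
Level of each gene (columns) in the 13 marker-gated classes (rows) of the WT and the KO library; numbers are CPM and colours log2(CPM + 1). Eng stood at 186 and 239 CPM in endothelial-like cells and at no more than 6.33 CPM in the other classes shown. Tgfb2 peaked at 271 and 244 CPM in smooth muscle or mural-like cells.

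Among the 13 classes, the 10 genes split by cell type, and the highest class was the same in both libraries for 10 of 10. The share of all genes with the same highest class was not counted. In WT the interval of the highest class overlapped that of the second for Tgfb1, Tgfbr1, Tgfbr2, Tgfbr3 and Tgfbi. Macrophage-like cells were highest for Tgfb1 and Tgfbr1, smooth muscle or mural-like cells for Tgfb2, Tgfb3 and Ltbp1, endothelial-like cells for Eng, Acvrl1 and Tgfbr2, mesenchyme for Tgfbi and neural crest or Schwann-like cells for Tgfbr3. With a mitochondrial maximum of 5%, close to the median of the cells (5.28% in WT, 5.62% in KO), the count of genes with the same highest class was 6.

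Tgfb1 encodes the ligand best known from blood and endothelial cells (chromosome 7, 25687002 to 25705077, GRCm38). In macrophage-like cells WT stood at 169 CPM (interval 156 to 183), KO at 161 CPM (146 to 177), and it was 150 CPM in endothelial-like cells of both libraries. The intervals of these classes overlapped in each library. Tgfb1 was 28.5 CPM or lower in every other class of the 13. Smaller classes lay outside the 13, and 11 megakaryocyte-like WT cells stood at 228 CPM (157 to 321). The 8 WT cells past the list of other blood cells stood at 195 CPM (146 to 255). Of WT macrophage-like cells 80.9% carried a UMI against 5.36% of skeletal muscle progenitor-like cells, with median depths of 18538 and 23481.5 UMIs. Endothelial-like cells made up 1.20% of WT cells and held 16.3% of the Tgfb1 UMIs, and in KO they were 1.13% of cells and held 26.6%. These shares also carry depth: endothelial-like cells had medians of 25214 UMIs in WT and 32871 in KO, against 13321 and 12391 over all cells.

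Tgfb2 (chromosome 1, 186622792 to 186705989) and Tgfb3 (chromosome 12, 86056745 to 86079041) encode ligands used in heart, vessel and palate development. Tgfb2 was 271 CPM in WT and 244 CPM in KO smooth muscle or mural-like cells, and the second class, sclerotome or cartilage-like cells, stood at 178 and 204 CPM with intervals clear of the first. Tgfb3 was 37.3 and 35.4 CPM in smooth muscle or mural-like cells. Erythroid-like cells were lowest for both ligands, at 14.0 CPM in both libraries for Tgfb2 and at 1.59 and 1.91 CPM for Tgfb3. Tgfb3 overlaps Ttll5 on the opposite strand, and Tgfbr3, Eng and Ltbp1 overlap other annotated genes on their own strand. How reads of overlapping genes were counted is not given in the sources used here.

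Among the signaling receptors, Tgfbr1 (chromosome 4, 47353222 to 47414931) was broad: outside erythroid-like cells it lay between 39.3 and 80.2 CPM in WT and between 35.3 and 105 CPM in KO. Macrophage-like cells overlapped the second class in WT (71.0 CPM in sclerotome or cartilage-like cells) and were clear of it in KO. Tgfbr2 (chromosome 9, 116084293 to 116175360) was 59.2 and 86.3 CPM in endothelial-like cells and 53.0 and 41.7 CPM in macrophage-like cells. In WT the intervals of these classes overlapped, and in KO they did not. Acvrl1 (chromosome 15, 101128522 to 101145336) was 50.4 and 54.1 CPM in endothelial-like cells and 15.9 and 15.3 CPM in macrophage-like cells. Macrophage-like cells therefore came second for both Tgfbr2 and Acvrl1.

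Eng (chromosome 2, 32646595 to 32682669) was the gene most restricted to endothelial-like cells, where WT stood at 186 CPM (172 to 201), KO at 239 CPM (224 to 254). Of the 13 classes, macrophage-like cells came second at 4.94 and 6.33 CPM. In WT, 87.9% of endothelial-like cells and 0.683% of erythroid-like cells carried an Eng UMI, at median depths of 25214 and 16923.5 UMIs. Tgfbr3 (chromosome 5, 107106570 to 107289629), the betaglycan gene, was 28.7 and 24.6 CPM in neural crest or Schwann-like cells and 23.8 and 17.5 CPM in visceral mesenchyme-like cells. Its highest class overlapped the second in both libraries.

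Ltbp1 (chromosome 17, 75005568 to 75392512), whose product anchors latent ligand, was 134 and 149 CPM in smooth muscle or mural-like cells and 114 and 121 CPM in coelomic or gonadal-like cells. Tgfbi (chromosome 13, 56609523 to 56639562), a matrix protein first found as a TGF-beta-induced product, was 110 and 121 CPM in mesenchyme. Its highest class overlapped the second in both libraries.

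Set against all stromal cells, 4 of the 10 genes were at least 4-fold higher in endothelial-like cells of both libraries, where 3.62% of all genes tested were. They were Eng (79.7-fold in WT and 83.3-fold in KO), Acvrl1 (17.6 and 16.0-fold), Tgfb1 (14.3 and 26.5-fold) and Tgfbr2 (5.91 and 6.19-fold). In macrophage-like cells 2 genes passed, Tgfb1 and Acvrl1, where 5.17% of all genes did. Over mesenchyme, smooth muscle or mural-like cells were at least 1.5-fold higher in both libraries for 4 genes (Tgfb1, Tgfb3, Eng and Ltbp1), where 6.71% of all genes were. The gain in Eng rested on 46 and 45 UMIs. The endothelial marker list summed to 62.8 CPM in WT and 38.4 CPM in KO smooth muscle or mural-like cells, and its part in that gain was not tested.

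Receptors and co-receptors were also counted in the same cells. Eng and Acvrl1 UMIs occurred together in 59.6% (49.3 to 69.3) of WT and 64.1% (53.5 to 73.9) of KO endothelial-like cells. The same pair occurred together in 3.37% and 3.29% of macrophage-like cells and 0.390% and 0.415% of stromal cells. Tgfbr1 and Tgfbr2 were found together in 38.4% (28.8 to 48.7) of WT and 56.5% (45.8 to 66.8) of KO endothelial-like cells, whose median depths were 25214 and 32871 UMIs.

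Over the 26 class profiles (13 classes in 2 libraries, which share library and depth), log2(CPM + 10) of Acvrl1 and Tgfbr2 had a Pearson r of 0.93, Eng and Acvrl1 0.91, and Tgfb2 and Tgfb3 0.85. Beyond the 10 genes, and with marker genes left out, the closest profiles to Eng were those of Cd93, Clec1b and Gimap4 (r 0.99 for each). The closest was that of Arap3 for Acvrl1 (0.96), of Klhl6 for Tgfb1 (0.97) and of Efnb1 for Ltbp1 (0.94). For both Tgfb2 (0.94) and Tgfb3 (0.92) it was that of Palld.

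Within endothelial-like cells, arterial and venous cells were separated by whether they carried more markers of the arterial list (such as Gja5 and Dll4) or the venous list (such as Nr2f2 and Aplnr). Acvrl1 was 94.7 CPM (76.6 to 116) in 35 arterial and 31.7 CPM (24.8 to 40.0) in 58 venous WT cells. In KO it was 79.4 CPM (58.1 to 106) in 19 arterial and 48.0 CPM (40.7 to 56.3) in 64 venous cells. It was therefore higher in arterial cells in both libraries, with log2 ratios of 1.58 and 0.73, as were 5.38% of all genes tested. No gene of the 10 was lower past the fold in arterial cells of both libraries, as 1.39% of all genes were.

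Eng was 227 CPM in arterial and 166 CPM in venous WT cells and 309 and 231 CPM in KO. The log2 ratios of 0.46 and 0.42 left out 0 and stayed under 1.5-fold. Tgfb2 was 116 CPM in arterial and 51.8 CPM in venous WT cells. In KO it was 46.6 CPM, on 27 UMIs, and 52.7 CPM, and the interval of the log2 ratio (-0.82 to 0.41) held 0. The KO direction depended on the marker margin. With a margin of 2 markers between the lists, KO stood at 70.7 CPM in 11 arterial and 47.0 CPM in 44 venous cells. The log2 ratio of Tgfb2 was then 0.59 (-0.27 to 1.36) in KO and 1.22 (0.80 to 1.64) in WT. Venous cells were deeper than arterial cells, with medians of 31011 and 15546 UMIs in WT and 44190 and 15683 in KO, and the part of depth in these values was not tested.

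Cells with a UMI of the hemogenic or cluster list (such as Runx1 and Kit) were set against those with none. Acvrl1 was 41.1 CPM in 51 WT cells with such a UMI and 73.7 CPM in 48 without (log2 -0.84, -1.29 to -0.39), and 50.1 and 67.2 CPM in KO, where the interval (-0.85 to 0.02) held 0. Tgfbr2 was higher in the WT cells with such a UMI (log2 0.84) and differed by 0.10 in KO. None of the 10 genes passed the fold in both libraries, where 0.352% of all genes were higher and 0.543% lower. The WT cells with such a UMI had a median of 45485 UMIs against 12122.5 without.

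With 2 or more genes of the list required, 11 WT and 10 KO cells were left, and 7 of the 10 genes could be read. Of these, 3 passed the fold in both libraries, 2 lower and 1 higher, where 2.59% of all genes were lower and 1.9% higher. Acvrl1 was 19.2 CPM in these WT cells against 73.7 CPM in cells with none (log2 -1.94, -2.96 to -1.05), and 29.7 against 67.2 CPM in KO (log2 -1.18, with an interval off 0). Eng was 91.1 against 209.9 CPM in WT (log2 -1.20) and 137 against 262 CPM in KO (log2 -0.93). Tgfbi was the one of the genes read that was higher, at 57.5 against 29.7 CPM in WT and 71.8 against 32.0 CPM in KO. Ltbp1 was not read, on 25 against 14 UMIs in KO, but its log2 ratios were 1.01 in WT and 1.43 in KO. Tgfb3, on 1 UMI in the cells with none in each library, had 3.96 and 3.77. The intervals of these ratios left out 0. The part of depth was not tested, and the medians of the smaller set were 55210 UMIs in WT and 56568.5 in KO.

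**Figure D2:**
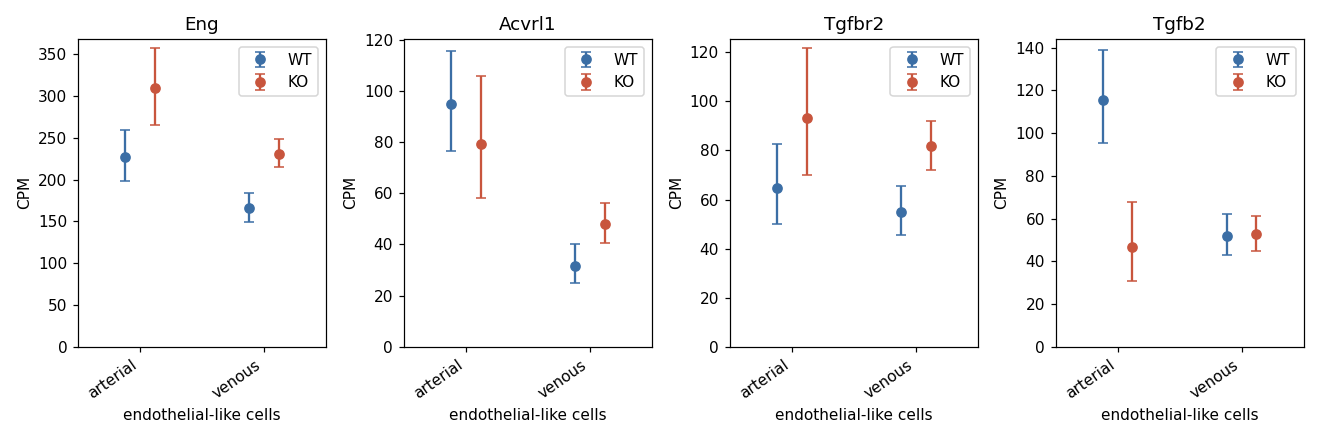
CPM of Eng, Acvrl1, Tgfbr2 and Tgfb2 in arterial and venous endothelial-like cells of the WT and the KO library; bars are 95% counting intervals. Acvrl1 was higher in arterial cells in both libraries, and Tgfb2 was higher there in WT (116 against 51.8 CPM).

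Between the genotypes, a gene was counted as past the fold when KO and WT differed at least 1.5-fold, the interval left out no difference and the gene had 50 or more UMIs in the class. Over all cells none of the 10 genes passed, where 6.40% of all genes were higher and 5.70% lower in KO. Over all stromal cells 1 gene passed, Tgfb1, which was lower as were 5.06% of all genes. In the 13 classes, 98 of 130 ratios could be read, and 12 passed, 4 higher and 8 lower in KO. Class by class, 2.33% to 5.27% of all genes were higher and 2.66% to 10.3% lower. No share over all genes was pooled across the classes, so these counts are a description only.

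The classes where none of the 10 genes passed were macrophage-like cells (7 genes could be read; of all genes 2.44% were higher and 4.58% lower), neural crest or Schwann-like cells (8 genes; 4.01% and 3.35%), skeletal muscle progenitor-like cells (7 genes; 2.79% and 4.68%), nephrogenic mesenchyme-like cells (7 genes; 2.33% and 2.91%) and mesenchyme (10 genes; 4.42% and 3.99%). In the other classes no gene was higher past the fold in endothelial-like cells, erythroid-like cells (where 3.08% of all genes were), neuron or sympathoblast-like cells (3.75%), smooth muscle or mural-like cells (4.52%), visceral mesenchyme-like cells (4.59%) or all stromal cells (5.04%). None was lower in coelomic or gonadal-like cells (4.73% of all genes) or sclerotome or cartilage-like cells (2.66%). Counts of 0 to 2 genes a class are too few to be read against these shares.

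**Figure D3:**
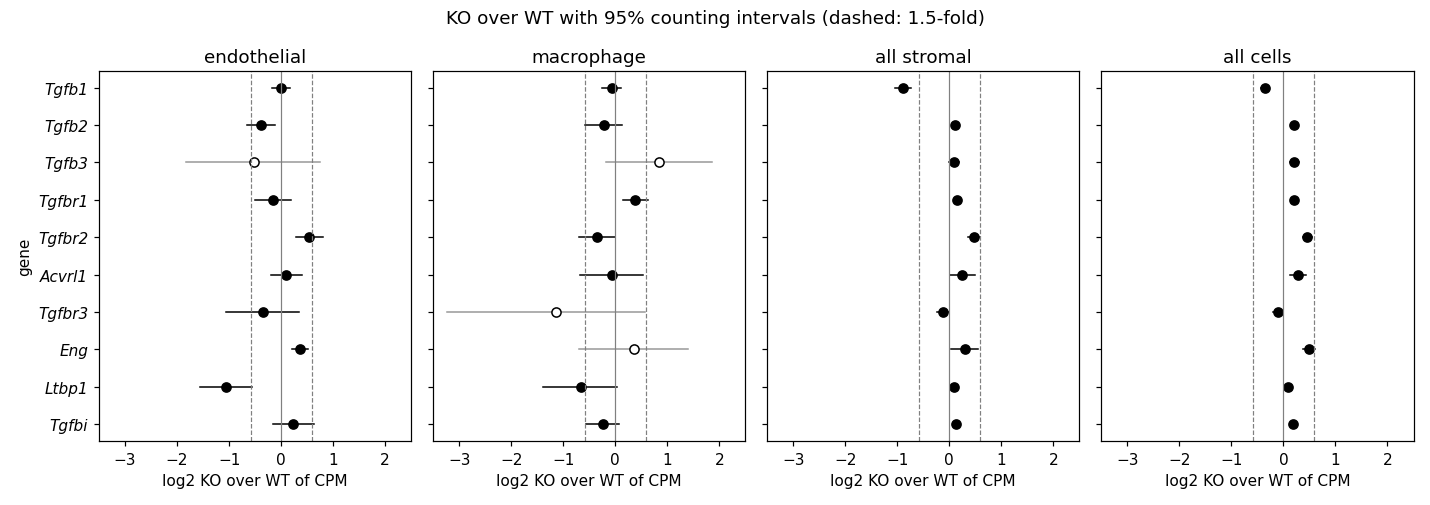
Log2 ratio of KO over WT CPM for each gene in endothelial-like, macrophage-like, all stromal and all cells; lines are 95% counting intervals, dashed lines mark 1.5-fold and open points had under 50 UMIs. Tgfb1 lay at -0.90 in stromal cells and at 0 in endothelial-like cells (150 CPM in both libraries).

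Tgfb1 was lower in the KO stroma and close to equal in macrophage-like and endothelial-like cells. Between genotypes it was not compared in megakaryocyte-like cells (11 in WT, 15 in KO). In stromal cells it fell from 10.5 CPM (9.89 to 11.2) to 5.66 CPM (5.20 to 6.16), a log2 ratio of -0.90. Sclerotome or cartilage-like cells, a class with little Tgfb1 (4.75 and 4.27 CPM, log2 -0.15, -0.55 to 0.25), were 14.3% of the WT library and 22.4% of the KO library. With the stromal classes of both libraries weighted to the WT mix, an alternative chosen after seeing the data, the stromal log2 ratio was -0.82. In smooth muscle or mural-like cells it was 28.5 CPM in WT and 14.1 CPM in KO (log2 -1.01, interval -1.31 to -0.73), where 5.78% of all genes were lower; with a mitochondrial maximum of 5% it was -0.54, under the fold. In visceral mesenchyme-like cells it was 18.7 and 6.66 CPM (log2 -1.49, -1.98 to -1.03), where 7.86% were lower. Mesenchyme outside these classes stood at 6.94 and 4.83 CPM, under 1.5-fold. Endothelial-like (log2 interval -0.17 to 0.17) and macrophage-like cells (-0.25 to 0.11) showed no such difference.

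The Tgfb1 difference was looked at inside the stromal classes. Smooth muscle or mural-like cells with 2 or more visceral markers had 31.2 CPM in WT and 16.6 CPM in KO, and those with fewer had 23.2 and 9.82 CPM. Mesenchyme with fewer than 2 visceral markers had 3.44 and 3.56 CPM, so no difference was seen there. The macrophage list summed to 4.38 CPM in WT and 2.57 CPM in KO smooth muscle or mural-like cells, against 9087 and 10168 CPM in macrophage-like cells. In cells without a UMI of that list Tgfb1 was 26.5 and 14.2 CPM, and the intervals of these levels did not overlap. No ratio with an interval was computed for these cells, and the part of macrophage RNA was not tested. The endothelial list summed to 62.8 CPM in WT and 38.4 CPM in KO smooth muscle or mural-like cells. In visceral mesenchyme-like cells it summed to 88.0 and 43.0 CPM, against 3439 and 3934 CPM in endothelial-like cells. The part of endothelial RNA in the Tgfb1 difference was not tested. RNA free of cells, read from barcodes of 100 UMIs or fewer, held 14.1 CPM (9.81 to 19.6) of Tgfb1 in WT and 18.2 CPM (13.2 to 24.6) in KO.

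The make-up of the visceral class also differed. Cells with a UMI of Barx1, a gene of stomach mesenchyme, numbered 139 of 479 in WT, and Tgfb1 in them was 9.00 CPM. Without them Tgfb1 was 23.1 CPM in WT and 6.90 CPM in KO. The 8 mesenchyme markers summed to 2303 CPM in WT and 1139 CPM in KO visceral mesenchyme-like cells, and to 2456 and 1703 CPM in smooth muscle or mural-like cells; their part in the result was not tested. In coelomic or gonadal-like cells Tgfb1 went the other way, from 4.63 to 9.11 CPM (log2 0.98, 0.27 to 1.69), on 33 and 40 UMIs, where 3.62% of all genes were higher. Without the deepest 5% of cells that log2 ratio was 0.0091.

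**Figure D4:**
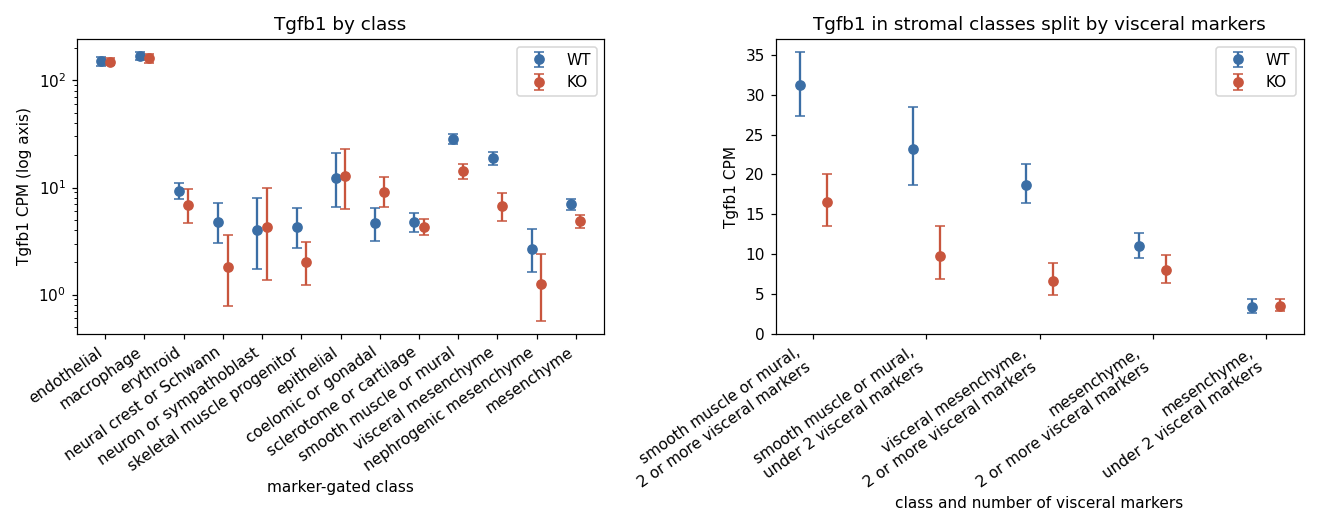
Tgfb1 CPM in the 13 classes (left, log axis) and in stromal classes split by visceral markers (right), WT and KO; bars are 95% counting intervals. Smooth muscle or mural-like cells fell from 28.5 to 14.1 CPM, and mesenchyme with fewer than 2 visceral markers stayed at 3.44 and 3.56 CPM.

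Tgfb2 was lower past the fold in a pair of classes, and Tgfb3 in none. Tgfb2 in visceral mesenchyme-like cells was 176 CPM in WT and 103 CPM in KO (log2 -0.77, -0.90 to -0.65). In neuron or sympathoblast-like cells it was 95.8 and 39.9 CPM (log2 -1.26), where 8.01% of all genes were lower. These cells had median depths of 18684 and 7244 UMIs. Their leading genes differed in part (among them Prdm12 and Pou4f1 in WT, Prph and Slc6a2 in KO), while Tlx3 and Cfap61 led in both. The mesenchyme list summed to 521 CPM in WT and 278 CPM in KO neuron or sympathoblast-like cells, and its part was not tested. In smooth muscle or mural-like cells, its highest class, Tgfb2 differed by a log2 ratio of -0.15. Tgfb3 passed the fold in none of the 8 classes that could be read, with log2 ratios from -0.26 to 0.42.

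Among receptors and co-receptors, Tgfbr2 and Eng passed the fold, both higher in KO sclerotome or cartilage-like cells. Tgfbr2 was 12.04 CPM in WT and 18.7 CPM in KO sclerotome or cartilage-like cells (log2 0.64, 0.42 to 0.86), where 5.27% of all genes were higher. In endothelial-like cells its 59.2 and 86.3 CPM gave 0.54 (0.29 to 0.80), under 1.5-fold. In macrophage-like cells it was lower, also under the fold, with a log2 ratio of -0.35 and an interval that only just left out 0 (-0.69 to -0.0021). Free RNA held 7.25 CPM (4.29 to 11.5) of Tgfbr2 in WT and 23.3 CPM (17.6 to 30.4) in KO, while KO erythroid-like cells had 0 Tgfbr2 UMIs in 212 cells, which allows up to 0.638 CPM (3 counts of the class total). Tgfbr1 and Acvrl1 passed the fold in no class, with log2 ratios from -0.46 to 0.38 in 13 classes and from -0.08 to 0.48 in 7.

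Eng, in endothelial-like cells, was 186 CPM in WT against 239 CPM in KO, a log2 ratio of 0.36 (0.22 to 0.51) that stayed under the fold, and 0 of the 10 genes were higher past it there, where 2.39% of all genes were. The Eng ratio depended on the choice of cells: it passed the fold with a mitochondrial maximum of 5% (0.60) and with 3 markers for a class (0.81), and was 0.033 without the deepest 5% of cells and 0.034 when CPM was averaged over single cells. In sclerotome or cartilage-like cells Eng was 2.23 and 3.41 CPM (log2 0.62, 0.09 to 1.16) on 44 and 103 UMIs. Tgfbr3 passed in no class, and in visceral mesenchyme-like cells its 23.8 and 17.5 CPM gave -0.44 (-0.76 to -0.13).

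Ltbp1 in endothelial-like cells was 27.6 CPM in WT and 13.3 CPM in KO (log2 -1.05, -1.56 to -0.56), where 5.36% of all genes were lower. The mesenchyme list summed to 431 CPM in WT and 317 CPM in KO endothelial-like cells. Without the lineage cells that carried 4 or more mesenchyme markers the Ltbp1 log2 ratio was -0.47, under the fold, and without the deepest 5% of cells it was -0.13. In neuron or sympathoblast-like cells Ltbp1 was 45.4 and 14.4 CPM (log2 -1.65), beside the same mesenchyme list values. Tgfbi was 14.3 and 7.01 CPM in erythroid-like cells (log2 -1.03), where 10.3% of all genes were lower. That ratio lay between -2.06 and -0.17 in the alternatives and stayed past the fold in 10 of 14. Free RNA held 61.6 CPM of Tgfbi in WT and 86.5 CPM in KO, and its part was not tested.

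The cells past the epithelial list, 22 in WT and 25 in KO, gave the remaining ratios: Ltbp1 38.9 and 91.1 CPM (log2 1.23) and Tgfbi 62.6 and 30.0 CPM (log2 -1.06). Among their leading genes were Dppa3, Dppa5a and Rhox6, known from germ cells, together with Shh in WT, and Krt5 and Krt14 of surface epithelium in KO. Cldn6 and Cldn3 led in both libraries. Of all genes 4.4% were higher and 6.78% lower past the fold. The leading genes of the list thus differed in part between the libraries, and the Ltbp1 ratio turned negative in 4 of 14 alternatives.

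Other genes of the pathway were taken from a list of 55. In stromal cells 52 could be read, 5 were higher and 11 lower in KO, where 5.04% and 5.06% of all genes were. Of the 5 other ligand genes that could be read, 3 were higher, Inhba (9.75 and 15.0 CPM) among them, and 1 was lower. Thbs1 (11.1 and 21.6 CPM), whose product can release latent ligand, was also higher. Lrrc32, which tethers latent TGF-beta to the cell surface, was 3.47 and 1.71 CPM. The pseudoreceptor gene Bambi was 116 and 71.2 CPM, and Fst, an activin antagonist, was 30.1 and 17.2 CPM. Of 12 response genes, 5 were lower, among them Col1a1 (661 and 324 CPM) and Postn (117 and 44.2 CPM), and 1, Cdkn2b, was higher. None of the 7 transducers, Smad genes among them, or of the 6 related receptors passed the fold. The median log2 ratio of the 52 genes was 0.03, beside 0.02 for all genes tested. By class, 6 of the 10 response genes read were lower in visceral mesenchyme-like cells, where 7.86% of all genes were. In smooth muscle or mural-like cells 5 of 11 were lower (5.78% of all genes), and in mesenchyme 2 of 10 (3.99%). Lower were 0 of 11 in sclerotome or cartilage-like cells (2.66%) and 0 of 8 in nephrogenic mesenchyme-like cells (2.91%). Those higher numbered 2, 1, 0, 1 and 0 in that order. The mix of stromal classes also differed, and its part was not tested.

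In endothelial-like cells 40 of the 55 genes could be read, 2 were higher (Nrros and Cdkn1a) and 6 lower, where 2.39% and 5.36% of all genes were. Those lower were the matrix genes Fbn1, Fn1, Col1a1, Col1a2 and Dcn and the receptor gene Bmpr1a. Dcn fell from 45.5 to 4.35 CPM and Col1a1 from 147 to 51.2 CPM. The mesenchyme list values of endothelial-like cells above stand beside these too, and their part was not tested.

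Finally, WT stromal cells were split by whether they carried a Pdgfrb UMI, since the study sorts stromal cells by PDGFRB and NG2 (Cspg4). The 2378 cells with one had a median of 17887.5 UMIs and the 2498 without had 12185. Ltbp1 was 73.7 CPM in cells with and 38.6 CPM in cells without a Pdgfrb UMI (log2 0.93, 0.84 to 1.02), and Tgfb1 was 12.99 and 6.55 CPM (log2 0.99, 0.77 to 1.21). Tgfbr3 (log2 0.60) and Eng (0.63) were also higher and Acvrl1 (-0.67) lower. Among all genes 6.09% were higher and 1.51% lower.

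In cells of 10000 to 30000 UMIs, where depth was closer, Tgfb1 (1.11), Ltbp1 (0.72) and Acvrl1 (-0.80) still passed, and Eng (0.39) and Tgfbr3 (0.57) did not. Without smooth muscle or mural-like cells the values were 0.67 for Tgfb1 and 0.71 for Ltbp1. By both genes, Tgfb1 was 22.3 CPM (19.7 to 25.0) in the 385 cells with Pdgfrb and Cspg4 UMIs, 10.4 CPM (9.50 to 11.4) in the 1993 with Pdgfrb alone and 11.6 CPM (8.49 to 15.4) in the 237 with Cspg4 alone. The cells with both were highest and deepest, with a median of 24137 UMIs.

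**Figure D5:**
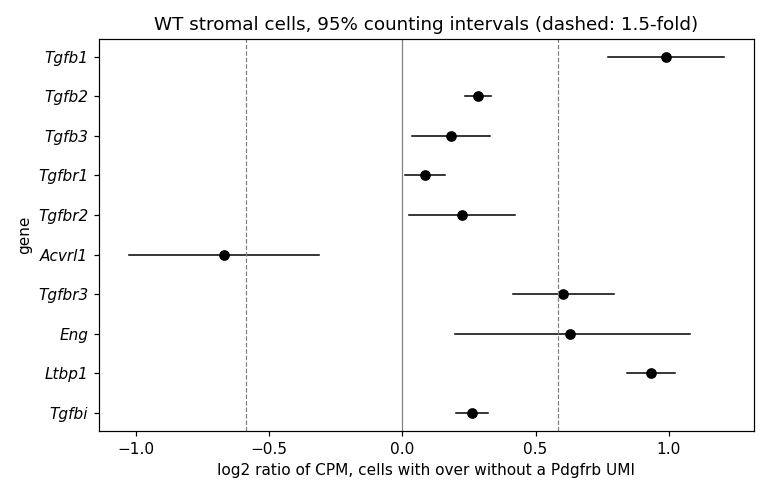
Log2 ratio of CPM in WT stromal cells with over without a Pdgfrb UMI, for each of the 10 genes; lines are 95% counting intervals and dashed lines mark 1.5-fold. Tgfb1 (0.99) and Ltbp1 (0.93) lay farthest to the right and Acvrl1 (-0.67) to the left.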

How the data were processed

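E11 AGM cells from 1 WT and 1 KO library were captured on the 10x Chromium platform. The authors made the deposited UMI counts with Cell Ranger 3.1.0 (per the labels, builds mm10 and GRCm38), as unfiltered matrices of all barcodes; no count was changed. The authors called cells with EmptyDrops and removed KO cells with detected Pdgfrb; here barcodes with 2000 or more UMIs and under 10% mitochondrial UMIs were kept in both. Cells with 4 of 8 markers of a lineage list entered it, and cells passing several were set aside (106 WT, 84 KO). Other cells with 4 or more markers of a stromal list went to the list with most. Ties (96 WT, 87 KO) were counted only in all stromal and all cells. Cells past none of these lists entered mesenchyme at 4 of its markers. The remaining 1660 WT and 1554 KO cells, with medians of 3643 and 3636.5 UMIs, entered no class and were counted only in all cells. No doublet caller was run. CPM intervals are exact Poisson, shares exact Clopper-Pearson and ratios exact conditional binomial, in Python 3.11.15 with scipy 1.17.1; edgeR 4.0.16 gave TMM factors for an alternative only. Genes with 50 or more UMIs over both libraries in a class were tested for the background shares. The calculations were tested on simulated data. The 10 genes, marker lists and pathway list were chosen with earlier results of these data known. Genes named are the 10, the pathway genes past 1.5-fold and, per gene, the 3 most alike profiles among genes with 300 or more UMIs. Marker genes were left out of that search for like profiles. Positions are from GENCODE M21 (GRCm38). Intervals cover counting error only.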

Additional observations from a re-analysis of the deposited data

Results flagged for a closer look

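Tgfb1 moved in opposite directions between classes: the log2 ratio of KO over WT was 0.98 in coelomic or gonadal-like cells, -1.01 in smooth muscle or mural-like cells and -1.49 in visceral mesenchyme-like cells. The difference between these classes was not tested, since each genotype had 1 library. The coelomic value rested on 33 WT and 40 KO UMIs and passed the fold in 7 of 14 alternatives, whereas the visceral value passed in 14 of 14 and the smooth muscle value in 13 of 14.

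Ltbp1 was lower in KO endothelial-like cells (log2 -1.05) and in neuron or sympathoblast-like cells (-1.65), and higher in the cells past the epithelial list (1.23). This difference was not tested either. The endothelial value passed the fold in 12 of 14 alternatives, the neuron value in 12 of 13 and the epithelial value in 8 of 14.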

How the results depend on the processing

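No paired analysis was possible because each genotype had 1 library. Of 181 alternative values for the 13 ratios past the fold, 175 kept their direction and 151 stayed past it. Tgfb1 in all stromal cells (log2 -1.21 to -0.84) and in visceral mesenchyme-like cells (-1.97 to -1.01), Tgfb2 in visceral mesenchyme-like cells (-0.88 to -0.67) and Tgfbr2 in sclerotome or cartilage-like cells (0.59 to 1.21) stayed past it in 14 of 14. The WT mix of stromal classes was not among these 14 and gave -0.82 for Tgfb1 in all stromal cells, outside that range. Over all 2116 alternative values, 1828 were within the stated spread, 282 moved and 6 reversed.

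Ltbp1 in the cells past the epithelial list reversed to -1.62 with a 5% mitochondrial maximum, -0.13 with 5 markers for a class, -0.58 without the deepest 5% of cells and -2.34 without lineage cells with 4 mesenchyme markers, the last chosen after seeing the data. With 3 markers for a class, Tgfb2 in neuron or sympathoblast-like cells reversed to 0.073 and Tgfb1 in coelomic or gonadal-like cells to -0.19. The cause was not tested.

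With the 5% maximum, which removed many cells, the same highest class held for 6 genes in place of 10, and 4 genes were past the fold in endothelial-like cells (in place of 1), 2 in all stromal cells (in place of 1) and 2 in all cells (in place of 0). In endothelial-like cells the count was also 5 with 3 markers for a class (median log2 ratio -0.38 in place of -0.0017), 2 with the mean of per-cell CPM, 0 without the deepest 5% of cells, 3 without KO cells with a Pdgfrb UMI, 2 without shared barcodes and 0 without lineage cells with 4 mesenchyme markers. In all cells it was 1 with per-cell CPM, 1 without the deepest 5% and 1 without KO cells with a Pdgfrb UMI. The shares of all genes past the fold under these settings are not given here, so these counts are a description only. Weighting the classes to the WT mix gave a median log2 ratio of 0.11 in all cells in place of 0.20. In cells of 10000 to 30000 UMIs, 3 genes in place of 5 differed by Pdgfrb. With 2 or more hemogenic or cluster markers in place of 1, 1 of the genes that could be read was higher in both libraries and 2 were lower, in place of 0 and 0. Eng had 50 or more UMIs in 4 of 13 classes, and its ratios in the others were not read.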
